A study of Homo sapiens with 16 samples.

Results

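The mRNAs of 10 feedback regulators of MAP kinase signalling were followed across 4 clones of the human breast cancer line MDA-MB-231. They comprise 7 dual-specificity phosphatases (DUSP1, DUSP4, DUSP5, DUSP6, DUSP10, DUSP14 and DUSP16) and 3 membrane-proximal inhibitors (SPRY2, SPRY4 and SPRED1). The genes were chosen by name, with earlier results of these data known. Each of the 10 names was found once among the 14857 genes of the deposited table. RNA-seq of 16 libraries gave the levels, with 4 libraries for each of TTP_H3, TTP_E11, EV_B and EV_A. MDA-MB-231 is a triple-negative line, known for a constitutively active RAS-ERK cascade.

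All 4 clones were stable transfectants with a tet-off system, in which doxycycline keeps the introduced gene silent. TTP_H3 and TTP_E11 carried a plasmid for tristetraprolin (TTP), the product of ZFP36, an RNA-binding protein that promotes the decay of mRNAs with AU-rich elements. EV_B and EV_A carried the empty vector. Every clone was kept under G418 and hygromycin B. Doxycycline at 2 µg/mL is stated only for the cells that express TTP, and it was removed together with the selection drugs for 24 h or longer before the experiments. Each group is thus 1 clone with 2 clones per arm, and the introduced gene and the doxycycline history cannot be told apart. The limma p-values of the main fit take the variation among cultures of the same clone as their error. Variation between the 2 clones of an arm enters the error where the reads of each clone were summed. It also enters in part in a model of 8 against 8 libraries, which still treats the cultures of a clone as independent. The groups follow the library names, since 7 of the 8 TTP libraries have titles that say EV.

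The kinases that these genes restrain are switched on by phosphorylation. Growth factor receptors activate RAS, which leads through RAF and MEK to the kinase ERK, while stress signals lead to the kinases p38 and JNK. Dual-specificity phosphatases remove the activating phosphates from these kinases. Sprouty and SPRED proteins act upstream, between the receptor and RAF. Many of these genes are themselves switched on by the kinases they oppose, which closes a negative feedback loop, and in cancer cells with an active cascade their mRNAs are widely used as a readout of ERK output. Several of these mRNAs are short-lived and carry AU-rich elements, and the DUSP1 mRNA is a reported target of TTP.

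AU-rich sequences in the 3′ UTRs are shown first because TTP binds such sequences. The pentamer ATTTA, the heptamer TATTTAT and the nonamer TTATTTATT were searched on the transcript strand of the longest 3′ UTR annotated in GENCODE 29 (GRCh38). Each longer motif contains the shorter ones. The first 2 sites below are the copies of the nonamer in DUSP1 (exon 4, minus strand). The others are heptamer sites of members that were lower in the TTP clones, and a pentamer site of DUSP10, also lower. Not every site is printed: the pentamer sites of DUSP16, which was higher, and those of DUSP6 and DUSP14 are left out. Capitals mark the motif, and each line is 30 bases, 5′ to 3′.
DUSP1, chr5:172768642-172768671: gggctggtccTTATTTATTtaacttcaccc
DUSP1, chr5:172768374-172768403: agaatataccTTATTTATTtttgtgtaggt
SPRY2, chr13:80336121-80336150, exon 2, minus strand: agtgtaaagaaTATTTATttgaagttttat
SPRY2, chr13:80336085-80336114, exon 2, minus strand: ataaaaaagaaTATTTATtttaagaggcat
SPRY4, chr5:142312396-142312425, exon 3, minus strand: gtaaccataggTATTTATtgattggaggaa
SPRED1, chr15:38353349-38353378, exon 7, plus strand: gaaagcatttaTATTTATatgacagcttga
DUSP10, chr1:221701502-221701531, exon 4, minus strand: taagaaaaaaaaATTTAtttaaaaatattt

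The 5 members with a heptamer were DUSP1 with 3 copies in 672 bases, SPRY2 with 2 in 782, SPRY4 with 4 in 3782, DUSP4 with 4 in 3962 and SPRED1 with 5 in 5585. Nonamers were found in DUSP1, with 2 copies, and in DUSP4, with 1. DUSP6, DUSP10, DUSP14 and DUSP16 held pentamers alone, with 1, 3, 3 and 5 copies, and DUSP5 held no ATTTA in its 1118 bases. Long UTRs hold such motifs often, so each count is set beside listed genes whose UTR length lies within a factor of 2. For DUSP1, 1.19% of 4523 such UTRs had at least 3 heptamers and 19.6% had any. For SPRY2, 5.62% of 4889 had at least 2 and 22.4% had any. For SPRY4, 6.08% of 4459 had at least 4 and 57.8% had any. For DUSP4, 6.56% of 4314 had at least 4 and 58.9% had any. For SPRED1, 4.77% of 2976 had at least 5 and 67.1% had any. For these 5 members, DUSP1 included, UTRs of similar length with as many copies were thus uncommon, although in the 3 long UTRs a single copy was frequent.

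Near the transcription start, RefSeq promoter windows (GRCh38.p14, 250 bases before to 50 after the start) were available for 8 members. They were searched on both strands for CCGGAA (an ETS-type core), TGANTCA (an AP-1 type site) and TGACGTCA (a cAMP response element). DUSP1 held the last of these, 125 bases before its start, as did 1.85% of 35116 promoters. SPRY2 had windows at several starts and held CCGGAA in only 1 of them, 142 bases before that start. Of single promoter windows, 17.2% held it. No other match was found in these windows, and a match is a description of letters, not of a used site. Both sites are printed as the only matches among the members.
DUSP1 promoter, chr5:172771302-172771331, minus strand: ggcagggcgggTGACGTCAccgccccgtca
SPRY2 promoter, chr13:80341251-80341280, minus strand: tccctgcctcctCCGGAAaggcgagggcgc

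The library names were checked with ZFP36, which was at 13337 to 15041 normalized counts in the TTP_H3 libraries, 10160.1 to 10941 in TTP_E11, 213 to 234 in EV_B and 226 to 282 in EV_A. A normalized count is a gene's reads divided by 1 size factor per library. Reads on the listed genes were 14380767 to 22066098 per library. All 6 markers fixed for the mesenchymal-like line (VIM, CD44, AXL, MSN, CAV1 and EGFR) were measured, with sums of 93420.3 to 98339 normalized counts in TTP and 119643 to 123138 in EV libraries. Of 8 receptor, luminal and epithelial markers 5 were measured, including ERBB2, KRT8 and KRT18, with sums of 24217 to 25993 in TTP and 23624 to 29071 in EV libraries, while ESR1, PGR and CDH1 are not analysed here. CD14 and CD68, the 2 of 5 immune markers measured, summed to 30.4 to 45.8 in TTP and 31.0 to 55.0 in EV libraries. KDR, the 1 of 4 endothelial markers measured, was at 95.1 to 164 in TTP and 33.3 to 55.5 in EV libraries. The 6 mesenchymal markers did not move as 1 group. By clone means VIM, CD44, AXL and CAV1 were lower in both TTP clones, while MSN lay between the EV clones. EGFR was higher, at 6902 in TTP_H3 and 6870 in TTP_E11 against 6063 in EV_B and 6099 in EV_A. The mesenchymal sum and KDR moved with the arm, and their part in the results was not tested. Replicate 3 of TTP_H3 stood apart. Over all genes its log2 deviations from the clone mean had an SD of 0.24, against 0.162 to 0.219 in the other libraries, and values without it are given for DUSP1, DUSP5, DUSP6, DUSP10, DUSP14 and SPRY4. In a chi-square of recovered reads per gene, it differed from the other libraries of its clone by 9.25 to 12.5, against 2.83 to 3.63 among those. Replicate 4 of EV_B also stood apart from its clone by this measure, at 5.87 to 6.35, against 1.67 to 2.31 among the other 3 libraries. The calls it changed are given for DUSP4, DUSP5 and DUSP14.

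All 10 members differed between the TTP and the EV arm when the clones of each arm were averaged, with 4 higher and 6 lower in TTP, in limma with Benjamini-Hochberg adjustment over all 14857 genes and a threshold of 0.05. The same test called 70.0% of all genes, 35.4% higher and 34.6% lower, so a count of 10 of 10 stands against a high background. The split over all genes was 5261 higher and 5144 lower, and with library totals set equal it was 6450 higher and 4060 lower, with 4 members higher, 5 lower and DUSP14 not past the threshold. A stricter rule asked for the same direction, past the threshold, in each of the 4 comparisons of 1 TTP clone with 1 EV clone. It held for 7 of 10 members, against 38.5% of all genes. DUSP1 and DUSP16 were higher by this rule (19.0% of all genes were), and DUSP4, DUSP10, SPRY2, SPRY4 and SPRED1 were lower (19.5%). The 8 TTP and the 8 EV libraries did not overlap for 7 of 10 members, 3 above and 4 below, against 31.8% of all genes. When each clone was made a single sample by summing its reads, edgeR (2 clones per arm) called 7 of 10 members and 29.4% of all genes. DUSP6, DUSP14 and SPRY2 did not pass then. The median log2 change, TTP minus EV, was -0.20 over the members and 0.00066 over all genes. In bulk RNA, a change in the RNA per cell and a change in the share of cells that hold it cannot be told apart.

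**Figure D1:**
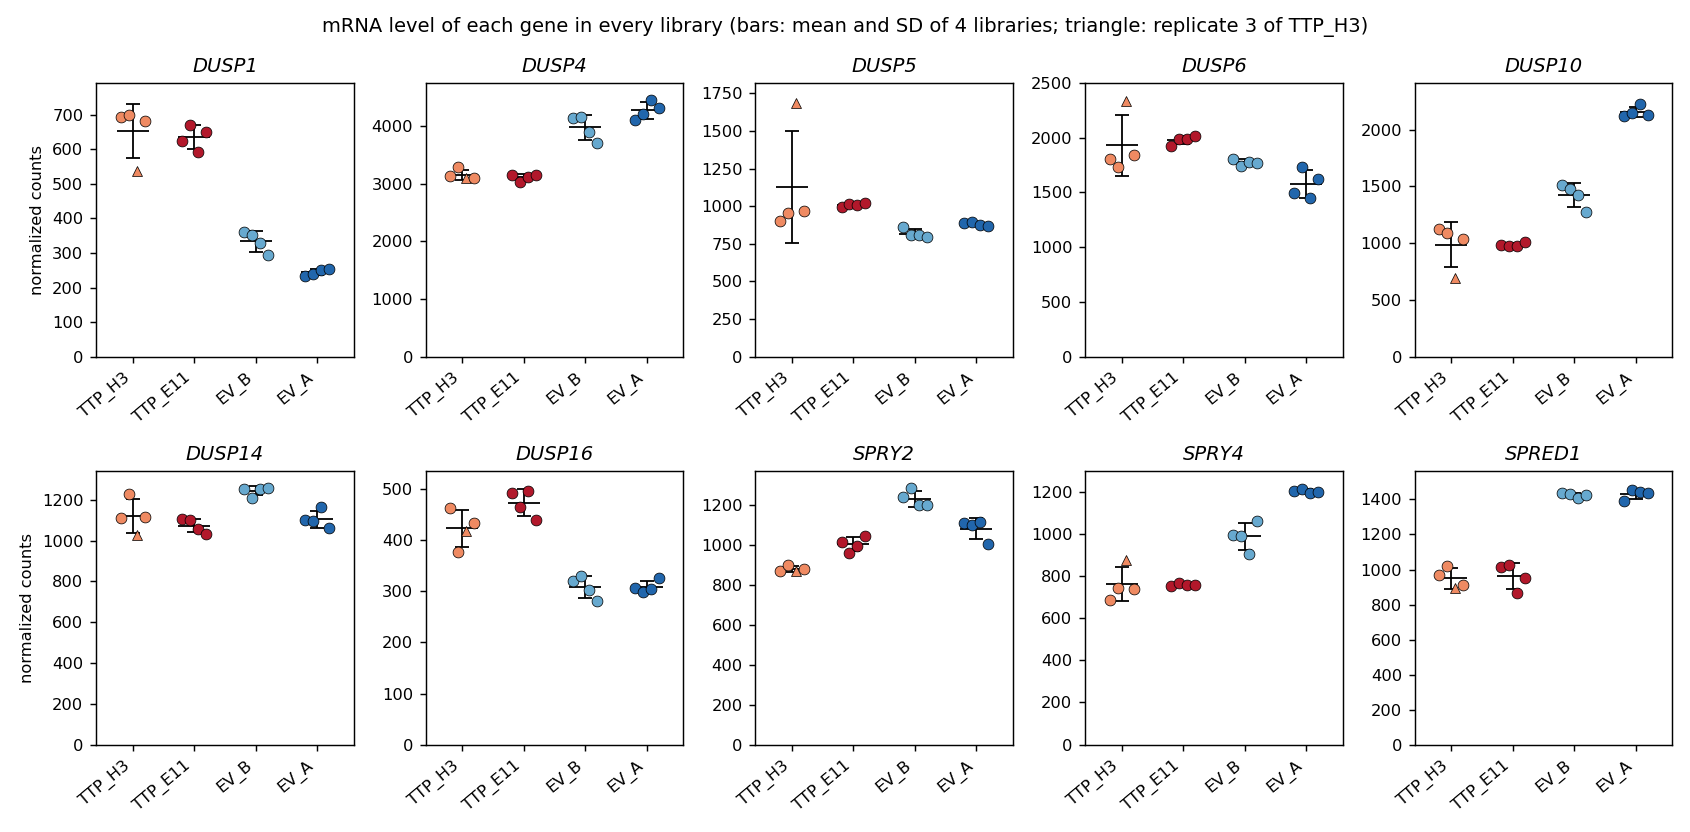
Normalized counts of each of the 10 genes (y axis, from 0) in every library, by clone (x axis, TTP_H3, TTP_E11, EV_B, EV_A). Bars are the mean and SD of 4 libraries and the triangle is replicate 3 of TTP_H3. DUSP1 stands above all EV libraries in both TTP clones, at 537 to 699 against 234 to 362, while SPRED1 stands below, at 866 to 1025 against 1392 to 1456.

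DUSP1 encodes a nuclear, rapidly inducible phosphatase of p38, JNK and ERK, and its mRNA was the one most strongly raised. DUSP1 (ENSG00000120129, chromosome 5, 172768090 to 172771195, minus strand) was at 692, 699, 537 and 682 normalized counts in replicates 1 to 4 of TTP_H3 and at 624, 671, 592 and 651 in those of TTP_E11. It was at 362, 352, 330.1 and 293 in EV_B and at 234, 240.4, 251.1 and 254 in EV_A. Every TTP library was above every EV library, and the lowest TTP library was the replicate 3 of TTP_H3. DUSP1 was 2.22-fold higher in TTP (log2 change 1.16 ± 0.0538 SE, adjusted p = 6.86e-19), with log2 changes of 0.93 to 1.40 over the 4 clone pairs. The EV clones were not alike either: EV_B was above EV_A by 0.44 (adjusted p = 2.43e-05). TTP_H3 and TTP_E11 did not pass, with a difference of 0.03 and a 95% interval of -0.12 to 0.19 (adjusted p = 0.836). Without replicate 3 of TTP_H3 it was 0.13 (adjusted p = 0.244), and the averaged change was 1.21. The gene thus stood in the opposite direction to the other 4 members with heptamers in their 3′ UTR.

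DUSP4 encodes a nuclear phosphatase of ERK and JNK and is induced by ERK activity. DUSP4 (ENSG00000120875, chromosome 8, 29333064 to 29350668, minus strand) was at 3128, 3281, 3103 and 3094 normalized counts in TTP_H3 and at 3143, 3024, 3116 and 3149 in TTP_E11. It was at 4146, 4157, 3894 and 3701 in EV_B and at 4108, 4201, 4454 and 4312 in EV_A. All TTP libraries were below all EV libraries, and the 8 TTP values lay close together. DUSP4 was lower in TTP, at 0.759 of the EV mean (log2 change -0.40 ± 0.0263 SE, adjusted p = 7.86e-15), and the 4 clone pairs gave -0.46 to -0.33. EV_B was below EV_A by a log2 change of -0.10 (adjusted p = 0.0269). That call between the EV clones was lost without EV_A replicate 3 (-0.08, adjusted p = 0.109), EV_A replicate 4 (-0.10, 0.0671), EV_B replicate 3 (-0.09, 0.0751) or EV_B replicate 4 (-0.07, 0.137).

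DUSP5, a nuclear phosphatase selective for ERK, gave a small difference whose size depended on 1 library. DUSP5 (ENSG00000138166, chromosome 10, 110497838 to 110511544, plus strand) was at 903, 954, 1688 and 971 normalized counts in TTP_H3 and at 996, 1013, 1006 and 1019 in TTP_E11. It was at 859, 811, 807 and 794 in EV_B and at 885, 896, 876 and 869 in EV_A. All TTP libraries were above all EV libraries, the gap between 903 and 896 being narrow, and replicate 3 of TTP_H3 was far above the rest. The averaged log2 change was 0.30 ± 0.105 SE (adjusted p = 0.0201), and 1 of 4 clone pairs passed (TTP_H3 against EV_B, 0.42, adjusted p = 0.0285). That pair was lost without EV_B replicate 2 (0.41, adjusted p = 0.0547), replicate 3 (0.41, 0.0558) or replicate 4 (0.40, 0.0591), and without TTP_H3 replicate 1 the pair of TTP_H3 with EV_A passed (0.40, 0.0385). With library totals set equal, TTP_H3 against EV_A (0.37, adjusted p = 0.0449) and TTP_E11 against EV_B (0.40, 0.0337) passed as well. DESeq2 also called TTP_H3 against EV_A (0.36, adjusted p = 0.0387). Without replicate 3 of TTP_H3 the averaged change was 0.20 with a smaller error (0.0325 SE, adjusted p = 5.68e-07), and 3 of 4 pairs passed. TTP_H3 against EV_B was then at 0.21 (adjusted p = 0.000252) in place of 0.42, and TTP_H3 against EV_A at 0.10 (adjusted p = 0.0746).

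DUSP6, the cytoplasmic ERK-selective phosphatase most often used as a readout of the pathway, was higher in TTP on average, and against EV_B its call depended on the scaling. DUSP6 (ENSG00000139318, chromosome 12, 89347232 to 89353271, minus strand) was at 1804, 1732, 2338 and 1839 normalized counts in TTP_H3 and at 1919.6, 1988, 1988 and 2010.2 in TTP_E11. It was at 1807, 1739, 1782 and 1768 in EV_B and at 1491, 1734, 1452 and 1624 in EV_A. The arms overlapped, since EV_B and most TTP_H3 libraries shared the same range, while TTP_E11 was above all EV libraries. The averaged log2 change was 0.22 ± 0.0522 SE (adjusted p = 0.0012). It came to 0.28 for TTP_H3 and 0.33 for TTP_E11 against EV_A, which passed, and to 0.11 and 0.16 against EV_B, which did not (adjusted p = 0.215 and 0.0801). With library totals set equal, both passed against EV_B, at 0.21 (adjusted p = 0.0236) and 0.25 (adjusted p = 0.00719), and DESeq2 called TTP_E11 against EV_B at 0.16 (adjusted p = 0.0434). Without replicate 3 of TTP_H3, that clone differed from EV_A by 0.19 (adjusted p = 0.000286) and from EV_B by 0.01 (95% interval -0.08 to 0.10, adjusted p = 0.807), whereas TTP_E11 differed from EV_B by 0.16 (adjusted p = 0.00109). An antisense gene, AC024909.2, overlaps DUSP6 exons, and reads of the pair cannot be told apart without strand. It was listed at 17.1 to 18.9 normalized counts as clone means, far below DUSP6, with a log2 change of -0.04 (adjusted p = 0.858).

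The phosphatases that prefer p38 and JNK moved apart, DUSP10 being lower and DUSP16 higher in TTP. DUSP10 (ENSG00000143507, chromosome 1, 221701424 to 221742176, minus strand) was at 1126, 1086, 696 and 1041 normalized counts in TTP_H3 and at 983, 979, 979 and 1007 in TTP_E11. It was at 1512, 1477, 1422 and 1271 in EV_B and at 2117, 2151, 2223 and 2132 in EV_A. The TTP libraries were all below the EV libraries, but the EV clones stood apart from each other and did not overlap. DUSP10 had the largest fall of the members in the averaged contrast, to 0.552 of the EV mean (log2 change -0.84 ± 0.0843 SE, adjusted p = 8.27e-07). The change depended on the EV clone, at -1.15 for TTP_H3 and -1.13 for TTP_E11 against EV_A, and at -0.55 and -0.52 against EV_B. Between the EV clones themselves, EV_B was lower than EV_A by -0.60 (adjusted p = 0.0014). Without replicate 3 of TTP_H3 the averaged change was -0.76 (adjusted p = 7.11e-25), TTP_H3 differed by -0.99 from EV_A and by -0.39 from EV_B, and the rule of 4 pairs still held.

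DUSP16 gave the opposite sign with EV clones that could not be separated. DUSP16 (ENSG00000111266, chromosome 12, 12474210 to 12562383, minus strand) was at 463, 377, 418 and 434 normalized counts in TTP_H3 and at 491, 466, 497 and 439 in TTP_E11. It was at 320.2, 329, 303 and 281 in EV_B and at 306, 299, 305 and 326 in EV_A. No TTP library overlapped an EV library. DUSP16 was 1.45-fold higher in TTP (log2 change 0.53 ± 0.0499 SE, adjusted p = 2.98e-11), with 0.45 to 0.62 over the clone pairs. EV_B and EV_A had a difference of -0.0049 with a 95% interval of -0.15 to 0.14 (adjusted p = 0.964). TTP_H3 minus TTP_E11 was -0.16 (adjusted p = 0.134).

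DUSP14, a small atypical phosphatase without a kinase-binding domain, showed the least difference. DUSP14 (ENSG00000276023, chromosome 17, 37489831 to 37513501, plus strand) was at 1026 to 1228 normalized counts in TTP_H3, 1033 to 1103 in TTP_E11, 1210.3 to 1260.0 in EV_B and 1062 to 1163 in EV_A. The arms overlapped and EV_A lay within the range of the TTP clones, so EV_B was the clone that stood high. The averaged log2 change was -0.10 ± 0.0335 SE (adjusted p = 0.0103). Against EV_B it was -0.15 for TTP_H3 (adjusted p = 0.00572) and -0.21 for TTP_E11 (adjusted p = 0.000243), and against EV_A it was 0.02 and -0.04, which did not pass. The pair of TTP_H3 with EV_B was lost with library totals set equal (-0.06, adjusted p = 0.296) and without EV_B replicate 4 and TTP_H3 replicate 3 together (-0.11, adjusted p = 0.0506). Without TTP_H3 replicate 3 alone it was -0.11 (adjusted p = 0.0342). With library totals set equal, the averaged change was -0.02 (adjusted p = 0.648), and with a model of 8 against 8 libraries it was -0.10 (adjusted p = 0.0634). In the authors' deposited table its log2 fold change was -0.10 with an adjusted p of 0.06, the only member above 0.05 there. That table gives the same sign as limma for each member, and its values for the other 9 run from -0.86 for DUSP10 to 1.15 for DUSP1.

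**Figure D2:**
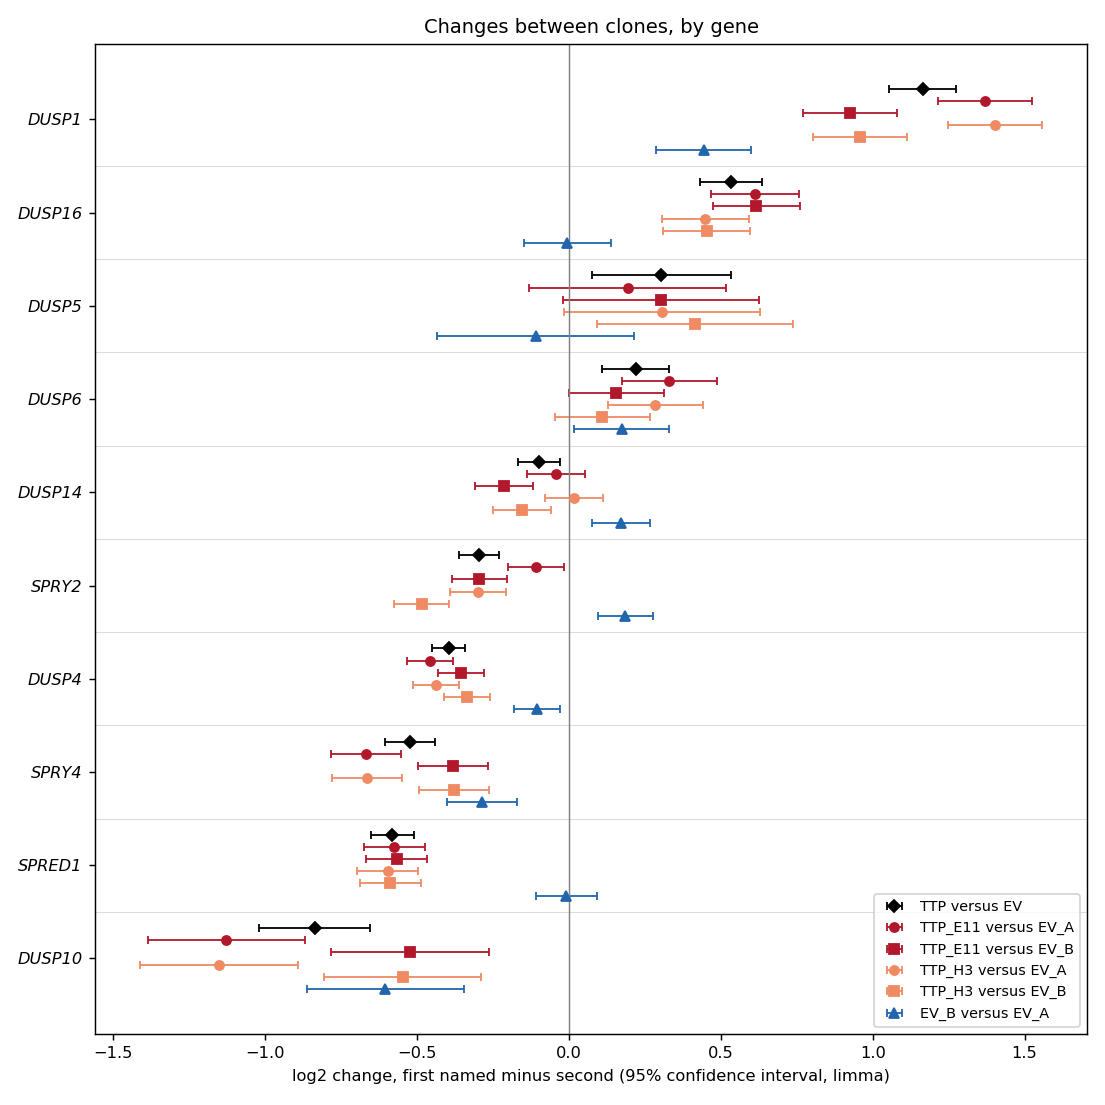
Log2 change (x axis, first named clone or arm minus second, with 95% confidence intervals from limma) for the 10 genes, ordered from the highest to the lowest averaged change. Diamonds average the clones of each arm, circles and squares are the 4 clone pairs and triangles are EV_B minus EV_A. For DUSP10 the squares, against EV_B, lie at -0.55 and -0.52 and the circles, against EV_A, at -1.15 and -1.13, while the 4 clone pairs of SPRED1 lie together at -0.60 to -0.57.

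The 3 inhibitors that act between receptor and RAF were all lower in TTP in each of the 4 clone pairs, as were 19.5% of all genes. For SPRY2, 1 of these pairs was lost under 6 alternatives, given with its values. SPRY2 and SPRY4 are Sprouty proteins, which bind adaptors of receptor tyrosine kinases and RAF and reduce RAS activation. SPRED1 brings neurofibromin, the product of NF1, to RAS at the membrane, and its loss causes Legius syndrome.

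SPRED1 was the clearest of them. SPRED1 (ENSG00000166068, chromosome 15, 38252326 to 38357249, plus strand) was at 969.9, 1023, 893 and 912 normalized counts in TTP_H3 and at 1016, 1025, 866 and 950.3 in TTP_E11. It was at 1439, 1431, 1409 and 1423 in EV_B and at 1392, 1456, 1444 and 1439.6 in EV_A. The arms were separated by a wide gap, and the ranges of the 2 clones within each arm overlapped. SPRED1 fell to 0.669 of the EV mean (log2 change -0.58 ± 0.0349 SE, adjusted p = 5.91e-16), with -0.60 to -0.57 over the clone pairs. EV_B minus EV_A was -0.0074 (95% interval -0.11 to 0.09, adjusted p = 0.924), and TTP_H3 minus TTP_E11 was -0.02 (95% interval -0.12 to 0.08, adjusted p = 0.842).

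SPRY4 was also lower, with EV clones that differed. SPRY4 (ENSG00000187678, chromosome 5, 142310427 to 142326455, minus strand) was at 686, 745, 876 and 738 normalized counts in TTP_H3 and at 751, 765, 756 and 756 in TTP_E11. It was at 993, 991, 902 and 1063 in EV_B and at 1205, 1211, 1192 and 1198 in EV_A. All TTP libraries were below all EV libraries, and the highest TTP library was again replicate 3 of TTP_H3. SPRY4 was at 0.694 of the EV mean (log2 change -0.52 ± 0.0398 SE, adjusted p = 2.27e-13), at -0.66 and -0.67 against EV_A and -0.38 for both TTP clones against EV_B. Without that library the averaged change was -0.56. EV_B was below EV_A by -0.29 (adjusted p = 0.000143). The antisense gene SPRY4-AS1, whose exons do not overlap those of SPRY4, had clone means of 25.8 ± 5.96 in TTP_H3, 28.8 ± 3.17 in TTP_E11, 40.6 ± 4.11 in EV_B and 39.4 ± 1.52 in EV_A (SD, n = 4 each) and was lower by -0.55 (adjusted p = 0.000503).

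SPRY2 was lower in a graded way. SPRY2 (ENSG00000136158, chromosome 13, 80335976 to 80340951, minus strand) was at 872, 900.4, 869.9 and 879 normalized counts in TTP_H3 and at 1017, 960.3, 997 and 1044 in TTP_E11. It was at 1239, 1288, 1202 and 1199 in EV_B and at 1113, 1100.0, 1114 and 1005 in EV_A. The arms overlapped by 1 EV_A library at 1005, which lay among the values of TTP_E11, while TTP_H3 was below all EV libraries. SPRY2 was at 0.814 of the EV mean (log2 change -0.30 ± 0.0318 SE, adjusted p = 6.67e-10). The clone pairs ran from -0.48 for TTP_H3 against EV_B to -0.11 for TTP_E11 against EV_A, which passed narrowly (adjusted p = 0.0369). That pair did not pass without EV_A replicate 1 (-0.09, adjusted p = 0.0968), 2 (-0.10, 0.085) or 3 (-0.09, 0.1), without TTP_E11 replicate 2 (-0.09, 0.126) or 3 (-0.10, 0.0704), or with library totals set equal (-0.04, 0.405). Its place among the members that passed in all 4 pairs therefore rests on single libraries.

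Clones within an arm were compared to show how far the members vary without a change of plasmid. EV_B differed from EV_A in 6 of 10 members, against 36.8% of all genes. DUSP1, DUSP14 and SPRY2 were higher in EV_B (20.2% of all genes were) and DUSP4, DUSP10 and SPRY4 were lower (16.6%), and DUSP10 and DUSP1 had the largest differences of these. TTP_H3 differed from TTP_E11 in 1 of 10, against 11.7% of all genes. That member was SPRY2, at -0.19 (adjusted p = 0.00453). ZFP36 itself was higher in TTP_H3 than in TTP_E11, by a log2 change of 0.45 (limma, adjusted p = 1.71e-06), and its part in these differences was not tested. Without replicate 3 of TTP_H3, 3 members passed (SPRY2, DUSP6 at -0.14 with adjusted p = 0.0238, and DUSP10 at 0.14 with adjusted p = 0.0433), against 15.2% of all genes. The comparison of EV_B with EV_A, which shares the estimate of spread, then passed for 8 members, against 40.4%, with DUSP5 (-0.11, adjusted p = 0.0445) and DUSP6 (0.17, adjusted p = 0.000611) added.

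Each TTP clone against both EV clones gave 9 of 10 members, against 64.7% of all genes for TTP_H3 and 64.6% for TTP_E11. DUSP14 did not pass for TTP_H3 (-0.07, adjusted p = 0.146, and -0.03, adjusted p = 0.584, without replicate 3) and DUSP5 did not for TTP_E11 (0.25, adjusted p = 0.11). Without replicate 3 of TTP_H3, DUSP5 passed for TTP_E11 (0.25, adjusted p = 2.19e-07), and without TTP_H3 replicate 2, DUSP14 passed for TTP_H3 (-0.11, adjusted p = 0.018). With library totals set equal, DUSP5 passed for TTP_E11 (0.33, adjusted p = 0.0395) and DUSP14 did not (-0.05, adjusted p = 0.32). The single pairs gave 9 of 10 members for TTP_H3 against EV_B (59.5% of all genes), 8 for TTP_H3 against EV_A (64.0%), 8 for TTP_E11 against EV_B (59.4%) and 8 for TTP_E11 against EV_A (63.1%). These comparisons share libraries and are set side by side only.

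Replicate 3 of TTP_H3 had the widest deviations. DUSP5 was 1.79-fold, DUSP6 1.31-fold and SPRY4 1.21-fold the mean of the other 3 libraries of the clone, all 3 above the range of those libraries. DUSP10 was at 0.642, DUSP1 at 0.776, DUSP14 at 0.891, SPRED1 at 0.922 and SPRY2 at 0.984 of that mean, all below the range. DUSP4 and DUSP16 lay within it. The ERK-selective phosphatases DUSP5 and DUSP6 were thus high in the library in which DUSP10 and DUSP1 were low. A single library carries this and no test was made.

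**Figure D3:**
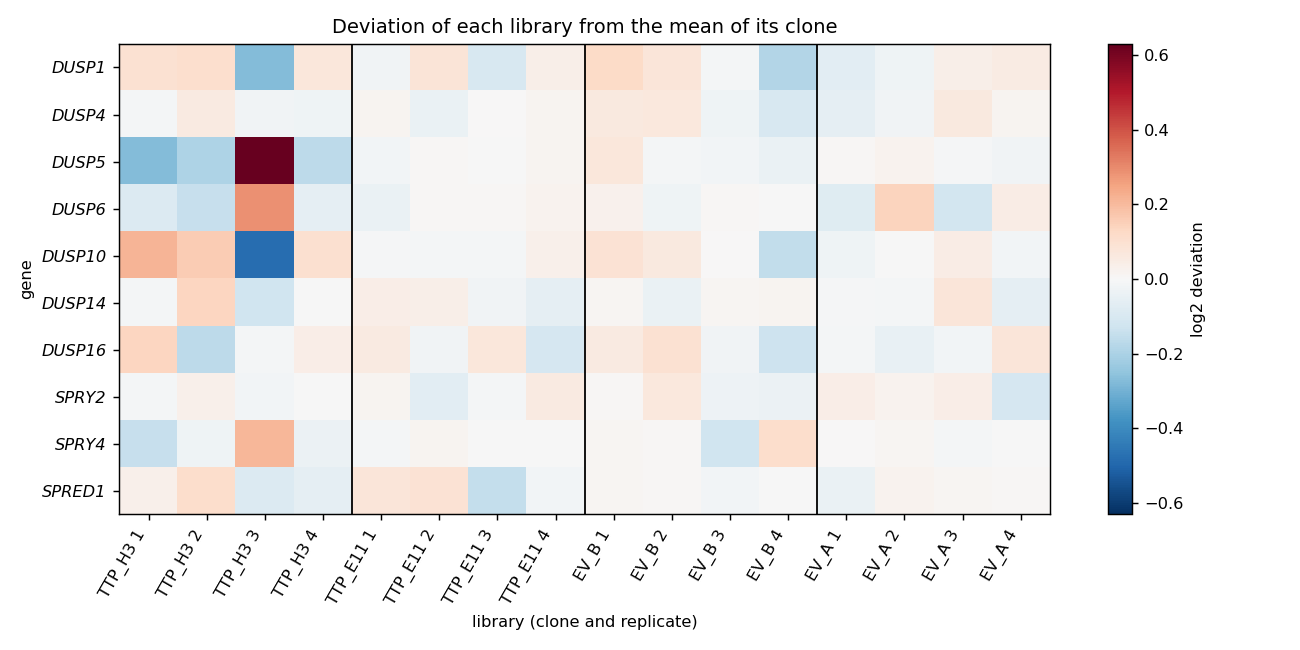
Log2 deviation of each library (x axis, clone and replicate) from the mean of its clone, for the 10 genes (y axis), on a colour scale in log2 units. The widest deviations stand in replicate 3 of TTP_H3, where DUSP5 was at 1688 and DUSP10 at 696 normalized counts.

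Levels of different genes were compared per kilobase of exon (union of exons in GENCODE 29). As means of the 4 clones, in normalized counts per kilobase, DUSP4 was at 499.6, DUSP10 at 476, DUSP14 at 455, DUSP6 at 392, DUSP5 at 367, SPRY2 at 346, DUSP1 at 231.1, SPRED1 at 144, SPRY4 at 141 and DUSP16 at 66.1. DUSP10 changed its place most, ranking 5 in TTP_H3 and TTP_E11, 3 in EV_B and 1 in EV_A. It was at 339 ± 67.7 per kilobase in TTP_H3, 339 ± 4.73 in TTP_E11, 488 ± 36.4 in EV_B and 739.7 ± 16.1 in EV_A (SD, n = 4). DUSP1 ranked 6 in TTP_H3 and 7 in TTP_E11, against 8 in EV_B and 9 in EV_A. DUSP16 was the lowest in every clone. The means of SPRED1 and SPRY4 were close, and their order differed between clones.

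Across all genes the heptamer was set beside the direction of change, as a description. It was present in 35.4% of 12564 annotated 3′ UTRs. Among genes lower in TTP in all 4 clone pairs, 1447 of 2740 UTRs (52.8%) held it, with a median UTR length of 1815 bases. Among genes higher in all 4 pairs, 608 of 2675 (22.7%) did, with a median of 1155 bases, and among the others 2388 of 7149 (33.4%), with a median of 1306. UTR length thus moved with the classes, and its part was not tested. Of the 4443 genes with a heptamer, 1447 were lower in all 4 pairs, 608 were higher in all 4 and 2388 were neither. Among the members, 4 of the 5 with a heptamer were lower in all 4 pairs (DUSP4, SPRY2, SPRY4 and SPRED1) and DUSP1 was higher. For SPRY2 the pair of TTP_E11 with EV_A passed narrowly (limma, adjusted p = 0.0369). Of the 5 members without a heptamer, DUSP10 was lower, DUSP16 was higher, and DUSP5, DUSP6 and DUSP14 did not move in all 4 pairs.

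**Figure D4:**
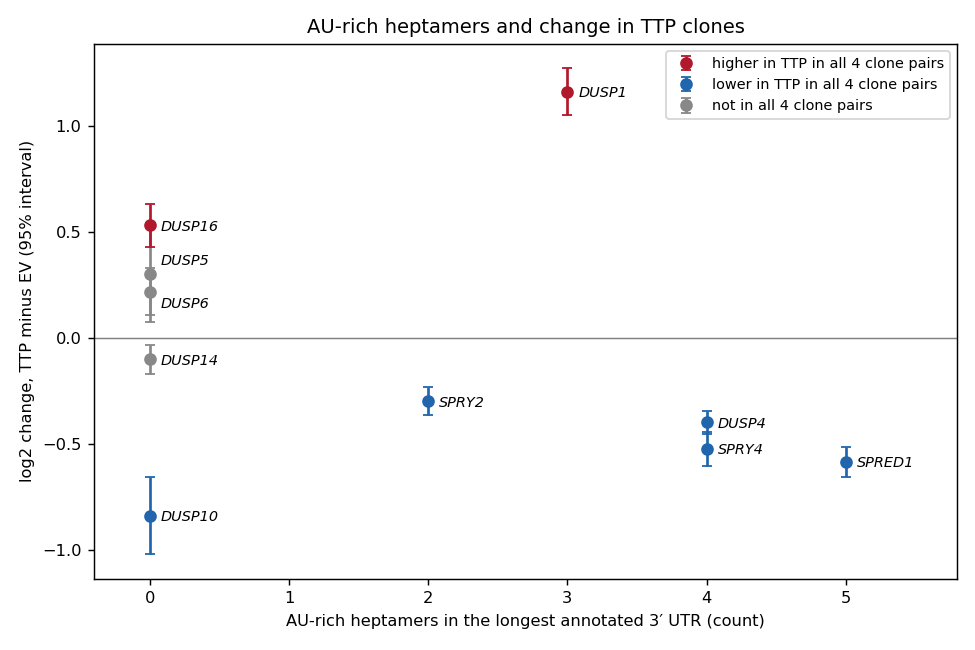
Log2 change, TTP minus EV with 95% intervals (y axis), against the number of AU-rich heptamers in the longest annotated 3′ UTR (x axis) for the 10 genes. DUSP1, with 3 copies, stands at 1.16, while the other 4 genes with a copy lie below 0, SPRED1 with 5 copies at -0.58.

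Other genes of the pathway were described in 6 lists. Of the other MAP kinase phosphatases, 3 of 4 were measured, with DUSP8 and DUSP2 higher and DUSP7 lower (median log2 change 1.29, against 0.00066 over all genes). All 3 passed, as did 70.0% of all genes, and this median is the value of DUSP2 alone. DUSP8, a phosphatase of JNK and p38, was at 95.5 ± 19.7 in TTP_H3, 97.2 ± 8.69 in TTP_E11, 33.6 ± 6.88 in EV_B and 31.2 ± 6.92 in EV_A (normalized counts, SD, n = 4 each; log2 change 1.55, adjusted p = 1.53e-12). DUSP2, an inducible nuclear phosphatase, was higher by 1.29 (adjusted p = 3.27e-10). Its clone means were 63.0 in TTP_H3, 52.7 in TTP_E11, 27.1 in EV_B and 19.7 in EV_A. Both genes were higher in all 4 pairs, as were 19.0% of all genes. DUSP7, which like DUSP6 is cytoplasmic and ERK-selective, had a log2 change of -0.25 (adjusted p = 7.36e-08), without passing in all 4 pairs. The standard errors of these log2 changes, 0.128 for DUSP8 and 0.134 for DUSP2, were above those of all 10 members.

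SPRY1, the Sprouty relative outside the members, fell further than any member. It was at 130.3 ± 29.5 in TTP_H3, 134.7 ± 15.4 in TTP_E11, 266 ± 12.2 in EV_B and 389 ± 24.0 in EV_A (log2 change -1.29, adjusted p = 7.41e-16), in all 4 pairs. SPRED3 and SPRED2 were higher in all 4 pairs, by 0.56 (adjusted p = 7.93e-09) and 0.25 (adjusted p = 1.42e-08), so that the SPRED genes did not move as 1 group. The median of the 3 measured of 4 listed genes was 0.25, the value of SPRED2. Over all genes 70.0% were called, and 19.0% were higher and 19.5% lower in all 4 pairs.

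Of 17 components of the RAS-ERK cascade, 2 were higher, 10 lower and 5 did not pass (median -0.11), with 1 higher and 5 lower in all 4 pairs. Over all genes, 35.4% were higher and 34.6% lower, and 19.0% and 19.5% in all 4 pairs, so that the 12 of 17 called lay near the 70.0% called overall. KSR1, a scaffold of RAF, MEK and ERK, was higher by 1.13 (adjusted p = 1.75e-16). SOS1, an activator of RAS, was higher by 0.07 (adjusted p = 0.0445), not in all 4 pairs. PTPN11, the phosphatase SHP2, was lower by a log2 change of -0.81 (adjusted p = 9.99e-24), and NRAS by -0.63 (adjusted p = 5.94e-19). MAP2K1, which encodes the kinase MEK1, also passed in all 4 pairs, at -0.60, and was picked after its value was seen. With library totals set equal, 5 of the 17 were higher and 7 lower (median -0.03).

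Of 7 other negative regulators, 1 was higher and 4 were lower (median -0.27), close to the 70.0% called among all genes. PEA15, which holds ERK in the cytoplasm, was higher by 0.48 (adjusted p = 4.04e-19), in all 4 pairs. RASA1, a RAS GTPase-activating protein, was lower by -0.97 (adjusted p = 3.48e-23) in all 4 pairs, and ERRFI1, an EGFR inhibitor, was lower by -0.56 (adjusted p = 2.04e-06) but not in all 4 pairs. Of 10 measured kinases and activators of the p38 and JNK branch, 2 were higher and 5 lower (median -0.11), again the share of all genes, 70.0%. With library totals set equal, 4 were higher and 5 lower (median -0.03). MAP2K3, an activator of p38, was higher by 0.57 (adjusted p = 6.1e-19) and MAP2K7, an activator of JNK, by 0.12 (adjusted p = 0.000465, not in all 4 pairs). MAPK9 (JNK2) was lower by -0.73 (adjusted p = 2.72e-19) and MAP2K6 by -1.70 (adjusted p = 3.21e-06). MAP2K6 was at 2.99 ± 2.69 normalized counts in TTP_H3, 5.84 ± 1.41 in TTP_E11, 13.3 ± 6.47 in EV_B and 17.8 ± 1.60 in EV_A, so its size of change is uncertain.

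Of 12 genes known to be induced by ERK signalling, 5 were higher, 6 lower and 1 did not pass (median -0.04, and 0.04 with library totals set equal, so that the sign of the median flips). Of all genes, 70.0% were called, 35.4% higher and 34.6% lower. MYC and ETV4, transcription factors, were higher by 0.70 (adjusted p = 2.91e-21) and 0.52 (adjusted p = 3.89e-16). CCND1 and PHLDA1 were lower by -1.05 (adjusted p = 6.36e-27) and -0.91 (adjusted p = 5.71e-25), and all 4 passed in all 4 pairs. The ERK-induced genes, like the feedback regulators, therefore stood on both sides of 0. With reads summed per clone, fewer of these genes passed, as given in the closing section.

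**Figure D5:**
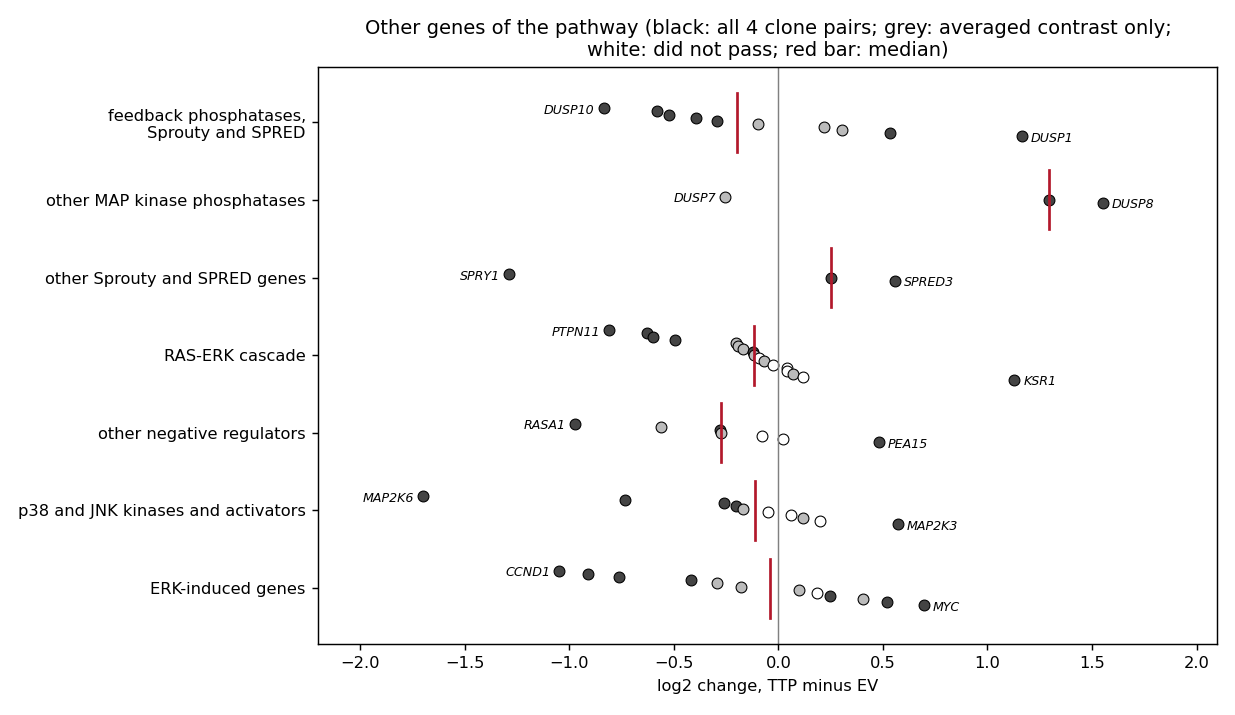
Log2 change, TTP minus EV (x axis), of each gene in the 10 feedback regulators and 6 other lists (y axis). Black points passed in all 4 clone pairs, grey points in the averaged contrast, and white points did not pass. Red bars are list medians, such as -0.20 for the 10 genes and 1.29 for the 3 measured other MAP kinase phosphatases.

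The gene whose profile over the 16 libraries was most like that of each member was named by Pearson correlation of log2(value + 1). All points share the 4 clones, their libraries and scaling, and the values are given without a test. DUSP1 was most like FYN (r = 0.99), DUSP4 like ARF6 (0.99), DUSP10 like MYLK (0.99), DUSP16 like TFDP2 (0.98), SPRY4 like ZNF24 (0.97) and SPRY2 like BASP1 (0.96). The members with weaker or library-borne changes had lower best values, 0.91 for DUSP14 with CCDC85C, 0.91 for DUSP6 with LSM2 and 0.88 for DUSP5 with CD22.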

How the data were processed

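RNA was sequenced from 16 cultures, 4 for each of 4 clones. The labels name a NucleoSpin kit for extraction and NEBNext Ultra II RNA for the libraries, and they leave strand unstated. GRCh38, DESeq2, Subread 1.5.2 with featureCounts, Trimmomatic 0.36 and STAR 2.5.2b are named, without roles or settings, per the submitters' processing notes. The sources used here do not give their gene annotation. Normalized signal values of each gene and library were deposited by the authors as 1 table. These values behave as read counts scaled by 1 size factor per library. Per the file headers, log2 fold changes with a p-value and its adjusted form, computed by the authors, stand beside them. The lowest mean of a gene was 9.68 normalized counts, and less abundant genes are not analysed here. Dividing by 1 step per library gave whole numbers within 0.001 for 100% of the values, so whole reads could be recovered. The step is close to 1 in TTP_H3 replicates 1 and 3, where the check is weak. Read totals refer to listed genes alone.

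The members and lists were chosen with earlier results of these data known, so no member's direction is independent support for another result. limma 3.58.1 (R 4.3.3, robust, trended) was run on log2(value + 1) with 4 clone groups in 1 fit, without a filter on low values. Fold changes on this scale understate those of genes with few reads. The method was also tested on simulated data in which the clones of an arm were alike, which cannot check calls where clones differ. Adjustment was over all 14857 genes. Named genes were every member, ZFP36, up to 2 rising and 2 falling genes per pathway list with the largest averaged change past the threshold, and the 1 most alike gene for each member. A gene that this rule names is not reported here. As alternatives, count models were run on recovered reads with edgeR 4.0.16 and with DESeq2 1.42.0, and the others were other pseudocounts, a filter, other scalings, a 2-group model, reads summed per clone, a replicate block, and leaving out libraries.

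Replicate numbers were compared across clones. The 24 same-numbered pairs of libraries had correlations of their deviations from the clone means between -0.0883 and 0.0962. The 72 other-numbered pairs had -0.115 to 0.133. No shared effect of the replicate number was seen, which cannot show whether cultures of the same number were handled together. No 2 libraries of a clone agreed within sampling noise (chi-square per gene of at least 1.55). Gene positions and 3′ UTRs came from GENCODE 29, which held 14820 of the listed genes, and promoters from RefSeq.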

Additional observations from a re-analysis of the deposited data

Results flagged for a closer look

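In 5 of the 40 sets of 4 libraries of a clone, 1 for each member and clone, the extreme library lay further from its neighbours than Dixon's 95% criterion allows, and chance alone gives about 1 in 20. DUSP1 in replicate 3 of TTP_H3 was at 536.7 normalized counts, below the other libraries of the clone at 682 to 699. DUSP5 in replicate 3 of TTP_H3 was at 1688, above the others at 903 to 971, so that 2 of the 5 cases were in this library. DUSP10 in replicate 4 of TTP_E11 was at 1007, above the others at 979 to 983. DUSP14 in replicate 2 of EV_B was at 1210, below the others at 1253 to 1260.0. SPRY2 in replicate 4 of EV_A was at 1005, below the others at 1100.0 to 1114. The gaps of DUSP10, DUSP14 and SPRY2 are small beside the clone means.

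SPRY2 was the member for which the TTP clones differed from each other by a direct test. TTP_H3 minus TTP_E11 was -0.19 on the log2 scale (limma, adjusted p = 0.00453), with all 4 TTP_H3 libraries below all 4 TTP_E11 libraries. Since both clones are set against the same EV clones, this is also the difference between their changes.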

How the results depend on the processing

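Each member kept its direction in TTP versus EV under all 27 alternatives. DUSP1, DUSP4, DUSP5, DUSP10, DUSP16, SPRY4 and SPRED1 also kept their call in all 27. With reads summed per clone, edgeR called 4375 genes (29.4% of all genes) in place of 10405 (70.0%). In the lists it called 2 of 3 other MAP kinase phosphatases and 2 of 3 other Sprouty and SPRED genes. Of the RAS-ERK cascade it called 5 of 17 genes, near the share of all genes. It called 3 of 7 other negative regulators, 4 of 10 genes of the p38 and JNK branch and 7 of 12 ERK-induced genes. DUSP6 (0.23, adjusted p = 0.08), SPRY2 (-0.29, 0.0762) and DUSP14 (-0.10, 0.414) did not pass there; this fit has 2 clones per arm. With library totals set equal, the median log2 change of all genes was 0.08, and 6450 genes were higher and 4060 lower, in place of 5261 and 5144. The members past the threshold in all 4 pairs then were DUSP1, DUSP4, DUSP6, DUSP10, DUSP16, SPRY4 and SPRED1. The share of all genes that passed in all 4 pairs was not counted with this scaling, so this list has no background beside it. With the replicate number as a block, 10354 genes passed and the block changed no member's call in TTP versus EV.

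Between the TTP clones, the number of members that passed was 1 to 3 when 1 library at a time was left out, and 3 without EV_B replicate 4 and TTP_H3 replicate 3 together. Without these 2 libraries, the sign turned for DUSP16 in EV_B minus EV_A (0.04) and, in TTP_H3 minus TTP_E11, for DUSP5 (-0.10), DUSP10 (0.14), SPRY4 (-0.07) and SPRED1 (0.0076). DUSP10 in TTP_H3 minus TTP_E11 was also above 0 in edgeR (1.79e-06) and DESeq2 (0.00022). When 1 library at a time was left out, EV_B minus EV_A ran from -0.037 to 0.038 for DUSP16 and from -0.021 to 0.00022 for SPRED1. TTP_H3 minus TTP_E11 ran from -0.0017 to 0.13 for DUSP1, -0.10 to 0.20 for DUSP5, -0.14 to 0.0022 for DUSP6, -0.10 to 0.14 for DUSP10, -0.067 to 0.050 for SPRY4 and -0.072 to 0.0093 for SPRED1. Among these, DUSP6 (-0.14, adjusted p = 0.0238) and DUSP10 (0.14, adjusted p = 0.0433) passed between the TTP clones without TTP_H3 replicate 3, and the cause was not tested. The lowest value of any member in any library was 234 normalized counts, and 2 clones per arm limit these comparisons.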
